A study of Mus musculus with 10 samples.

Results

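The glutathione S-transferases, sulfotransferases and UDP-glucuronosyltransferases of liver were examined in fasted female mice. They were taken as all genes of the deposited count table whose symbol begins with Gsta, Gstk, Gstm, Gstp or Gstt and a digit, with Sult and a digit, or with Ugt1, Ugt2 or Ugt3. This gave 49 genes of 19764, made up of 18 Gst, 19 Sult and 12 Ugt genes. Whole liver was sequenced from 2 genotypes with 5 libraries each. GRMAC mice had LysM-Cre and a glucocorticoid receptor gene flanked by loxP sites (floxed), and GRflox littermates had the floxed receptor gene and no Cre. All were fasted for 8 h from ZT12, when the active phase of mice begins. The LysM promoter drives Cre in myeloid cells, Kupffer cells and monocytes among them, so hepatocytes are not its target. Because GRflox mice had no Cre, what Cre does and what the missing receptor does cannot be told apart. The labels do not say that each library came from a separate mouse, so p-values measure the spread between these libraries.

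These enzymes carry out the conjugation step of detoxification. Glutathione S-transferases join glutathione to reactive electrophiles, sulfotransferases transfer sulfate from the donor PAPS to phenols, steroids and bile acids, and UDP-glucuronosyltransferases transfer a sugar, mostly glucuronic acid, to bilirubin, steroids and drugs. Most are made in hepatocytes, several are targets of the xenobiotic sensors and of NRF2, and in mouse liver many differ between the sexes under the control of growth hormone.

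Library totals ranged from 23258884 to 26116916 counts in GRMAC and from 25697931 to 27692528 counts in GRflox, and a count of 3 corresponded to 0.111 to 0.129 CPM, the read count of a gene scaled by library size. Hepatocyte markers were abundant in every library, with a summed level of 121120 to 143750 CPM in GRMAC and 122600 to 141720 CPM in GRflox over the 9 markers in the table, among them Alb. After a filter on low counts 38 of the 49 genes remained and were tested with edgeR's quasi-likelihood test together with all 12558 genes that passed. The other 11 held at most 17 counts in any library. These were Gsta1, Gstt4, Sult1e1, Sult2a3, Sult2a4, Sult2a6, Sult2b1, Sult4a1 and Sult6b1 at low counts, and Sult1c1 and Ugt2a1 with 0 counts in all 10 libraries, which allows up to 0.129 CPM in the shallowest one by counting error alone.

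The genes Gstp1 and Gstp2 lie in tandem on chromosome 19, and their sequences bear on how their counts can be read. In GENCODE transcripts, 62.3% of all 50-base windows of Gstp1 also occur in Gstp2, and 64.3% of those of Gstp2 occur in Gstp1. The 250 bases upstream of their start sites (RefSeq, GRCm38.p6, minus strand, chr19:4037913-4038162 for Gstp1 and chr19:4042222-4042471 for Gstp2) are shown here because these neighbours had the largest negative fold changes of the Gst genes. Capitals mark the bases that differ or have no partner in an alignment of the pair.
Gstp1: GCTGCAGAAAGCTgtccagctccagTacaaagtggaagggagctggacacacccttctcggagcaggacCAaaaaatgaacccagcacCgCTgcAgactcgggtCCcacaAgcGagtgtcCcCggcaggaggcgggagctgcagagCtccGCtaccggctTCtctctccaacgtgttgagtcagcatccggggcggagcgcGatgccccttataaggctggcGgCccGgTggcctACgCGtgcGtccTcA
Gstp2: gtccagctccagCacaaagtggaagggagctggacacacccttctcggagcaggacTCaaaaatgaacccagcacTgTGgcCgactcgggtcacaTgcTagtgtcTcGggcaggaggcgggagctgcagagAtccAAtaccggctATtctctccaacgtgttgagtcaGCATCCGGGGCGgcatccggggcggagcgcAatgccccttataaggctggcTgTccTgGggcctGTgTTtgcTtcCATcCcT
The alignment had 235 paired positions, of which 207 (88.1%) were identical. The longest stretch of Gstp2 without a partner in Gstp1 was 12 bases, and it repeats the bases that follow it. A search for AHR core (GCGTG) on both strands found it in the Gstp1 window and not in the Gstp2 window, and 28.2% of all 32851 such windows hold it. Over the 3 families it was found at 8 of 51 start sites. A match or its absence describes these letters only.

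Levels differed widely between the genes. Per kb of transcript, the scale on which genes can be compared, Gsta3, a class alpha enzyme that in mice detoxifies aflatoxin epoxide, was highest in both genotypes, at 643.9 CPM per kb in GRMAC and 639.5 CPM per kb in GRflox. Next came Gstm1 of class mu (450.5 CPM per kb in GRMAC and 474.1 CPM per kb in GRflox), Ugt2b5 (360.4 and 343.1 CPM per kb in the same order of genotypes) and Sult1a1, the main phenol sulfotransferase (269.9 CPM per kb in GRMAC and 278.6 CPM per kb in GRflox). The first 5 places were held by the same genes in both genotypes, with Ugt2b36 in the fifth. Neighbours among these 5 overlapped in single libraries of both genotypes, except Gsta3 and Gstm1, which overlapped in GRMAC and not in GRflox, and Ugt2b5 and Sult1a1, which overlapped in GRflox and not in GRMAC. Lower down, Sult3a1 took place 7 in GRMAC and place 15 in GRflox, and Gstp1 place 9 in GRMAC and place 6 in GRflox. Transcripts with long stretches shared with other genes are less certain in this order, such as Ugt2b5, which shares 34.8% of its windows with Ugt2b38.

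**Figure D1:**
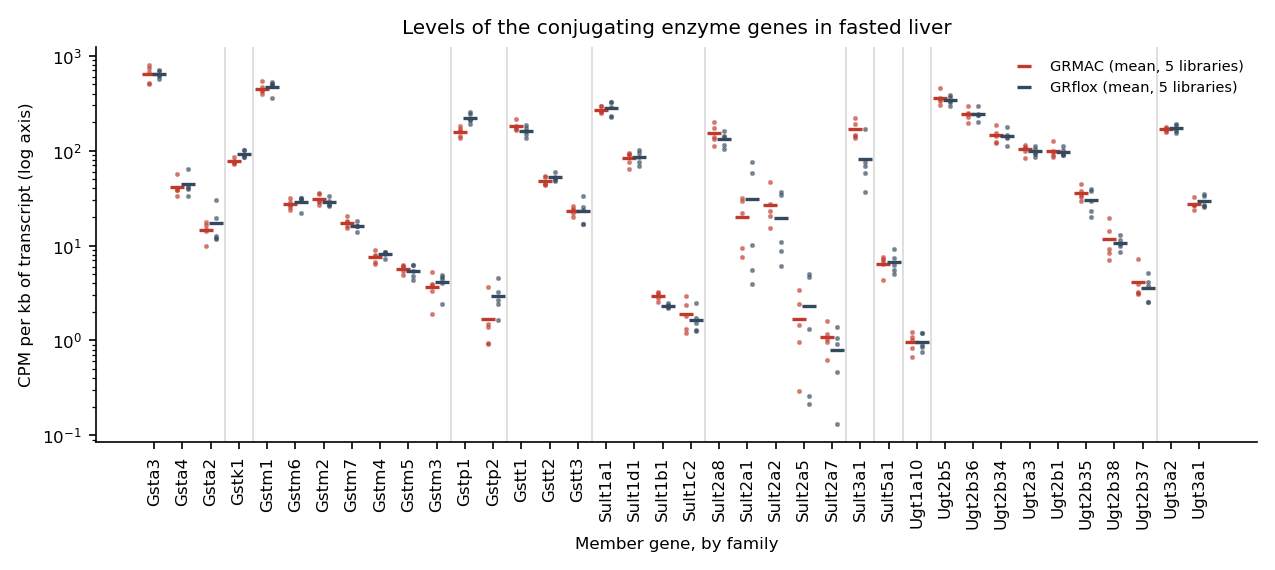
Level of each of the 38 tested genes in CPM per kb of transcript (log axis), by family, with GRMAC at the left and GRflox at the right of each pair. Points are libraries and bars are means of 5 libraries. Gsta3 is highest at about 640 CPM per kb, and the genotypes lie close together for most genes.

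No gene of the 3 families passed the edgeR threshold (adjusted p under 0.05 over all genes tested), where 22 of 12558 genes (0.175%) did. With DESeq2 refitted to the same counts 3 passed, where 425 of the 16146 genes fitted did. The 16146 are all genes fitted, whether or not DESeq2 gave them an adjusted p. With limma-voom 0 passed, where 8 of 12558 genes did. In the 38 tested, 4 had an unadjusted p under 0.05 (10.5%, against 16.3% of all genes), namely Gstp1, Gstk1, Sult1b1 and Sult3a1. The genotypes did not overlap for 3 of them, Gstp1, Gstk1 and Sult1b1 (7.89%, against 4.05% of all genes). In the authors' deposited table, 2 genes were lower at an adjusted p under 0.05 (Gstp1 and Gstk1; 5.13% of the 39 with a value, against 1.49% of all genes) and 1 was higher (Sult1b1; 2.56%, against 1.84%). Most fold changes were small. The median log2 fold change over the 38 was −0.005, against 0.001 over all genes, with 20 negative and 18 positive (47.4% positive, against 50.2% of all genes), and 29 lay within 0.25 of 0. Because liver was sequenced whole, fewer cells of a type and less RNA per cell cannot be told apart.

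**Figure D2:**
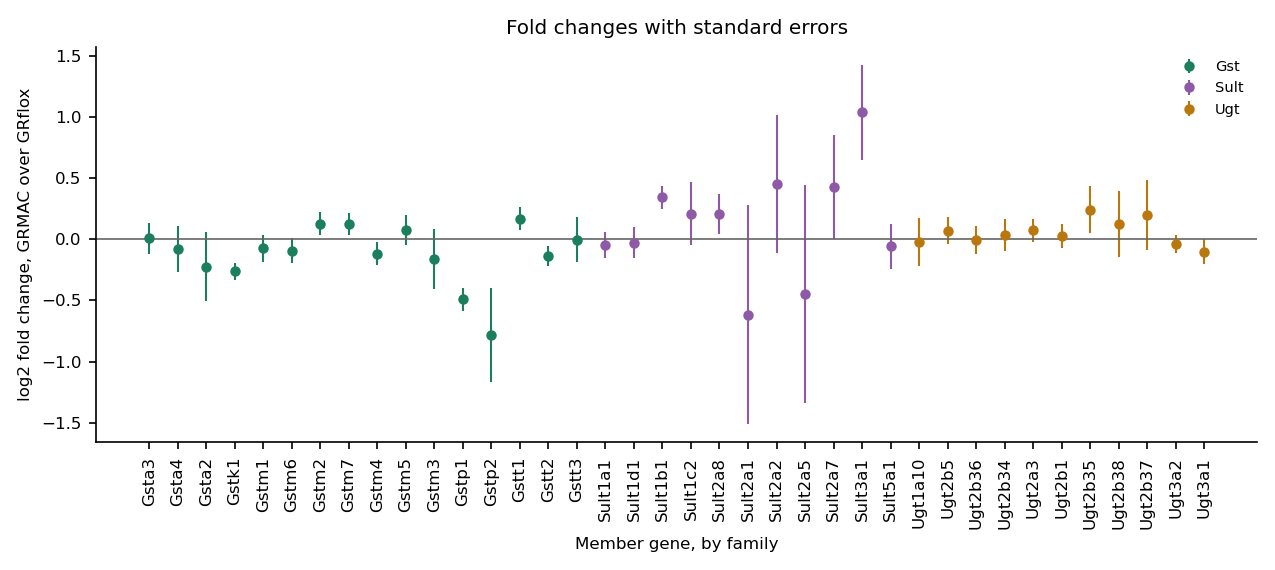
Log2 fold change of GRMAC over GRflox with its standard error (edgeR) for the 38 tested genes, by family. The Ugt genes lie between −0.10 and 0.24, Gstp2 is lowest at −0.78 and Sult3a1 highest at 1.04.

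Gstp1 encodes the class pi transferase, which conjugates small electrophiles and is a male-biased gene in mouse liver (NM_013541, mm10 chromosome 19, 4035411 to 4037912). It was measured at 139, 131, 148, 116 and 112 CPM in GRMAC libraries 1 to 5, against 198, 208, 173, 174 and 156 CPM in GRflox libraries 1 to 5. Every GRMAC library lay below every GRflox library. Means were 129.3 ± 15.1 CPM in GRMAC and 181.6 ± 21.0 CPM in GRflox (SD, n = 5 each), a log2 fold change of −0.49 ± 0.09 (SE) with an edgeR adjusted p of 0.0543, just above the threshold. An exact two-sided permutation test over all assignments of 5 libraries against 5 gave p = 0.00794, the smallest it can give. In the authors' deposited table the adjusted p was 0.000445. Over 18 alternatives to the main test, the adjusted p of Gstp1 ran from 0.000443 with DESeq2 to 0.106 without GRMAC 1, and its log2 fold change from −0.54 to −0.43. Without the filter on low counts it passed as well (edgeR adjusted p = 0.0350).

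Gstp2, its neighbour (NM_181796, chromosome 19, 4040288 to 4042221), stood far lower, at a mean of 1.67 CPM per kb in GRMAC and 2.91 CPM per kb in GRflox, where Gstp1 had 157.5 CPM per kb in GRMAC and 221.1 CPM per kb in GRflox. Gstp2 had 0.733, 1.12, 1.19, 2.88 and 0.740 CPM in GRMAC libraries 1 to 5, against 3.63, 2.14, 2.59, 1.31 and 1.92 CPM in GRflox libraries 1 to 5. Apart from GRMAC 4, all GRMAC libraries were below all GRflox libraries. The log2 fold change was −0.78 ± 0.38 (edgeR adjusted p = 0.332; exact permutation p = 0.0794), and −1.28 without GRMAC 4 (edgeR adjusted p = 0.0981). Reads of the shared windows may have been counted for either gene, so the sum of both is the surer value. It was 113.2 to 149.4 CPM in GRMAC and 157.5 to 209.97 CPM in GRflox, a log2 ratio of the means of −0.49, with no overlap. Gstp1 made up 99.0% of this sum in GRMAC and 98.7% in GRflox. Cholangiocyte markers had a summed level of 50.8 to 71.9 CPM in GRMAC and 47.7 to 55.5 CPM in GRflox over 8 genes, and Kupffer cell markers 308.5 to 433.1 CPM in GRMAC and 284.4 to 379.0 CPM in GRflox over 14 genes. Both ranges overlapped between the genotypes. The Kupffer cell sum includes Cd163, at a mean of 3.07 CPM in GRMAC and 28.8 CPM in GRflox. Of its 14 genes, 10 had positive fold changes and 4 negative ones. The part of these cell types in the level of Gstp1 was not tested.

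Gstk1, the class kappa transferase of mitochondria and peroxisomes (NM_029555, chromosome 6, 42245935 to 42250441), was also lower in GRMAC. It had 73.0, 79.1, 68.0, 70.2 and 68.6 CPM in GRMAC libraries 1 to 5, against 82.8, 80.03, 79.2, 94.4 and 94.2 CPM in GRflox libraries 1 to 5. The genotypes did not overlap, though GRMAC 2 and GRflox 3 nearly met. The log2 fold change was −0.26 ± 0.07 (edgeR adjusted p = 0.0973; exact permutation p = 0.00794, the smallest possible), and the authors' deposited table gave an adjusted p of 0.0244. Its transcript shares no 50-base window with another gene.

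Classes alpha, mu and theta did not separate the genotypes. Gsta3 had 976, 1165, 1073, 730 and 746 CPM in GRMAC libraries 1 to 5, against 831, 1001, 914, 1025 and 889 CPM in GRflox libraries 1 to 5, so the GRMAC libraries enclosed the GRflox ones (log2 fold change 0.01 ± 0.13, edgeR adjusted p = 0.980). Gstm1 had 699, 603, 542, 556 and 504 CPM in GRMAC libraries 1 to 5, against 648, 612, 686, 646 and 462 CPM in GRflox libraries 1 to 5 (−0.07 ± 0.11, edgeR adjusted p = 0.784). The lowest value was that of GRflox 5. Gstt1, a class theta enzyme that acts on small halogenated compounds, had 169.6, 224.6, 184.2, 173.3 and 187.6 CPM in GRMAC libraries 1 to 5, against 139.9, 156.3, 165.6, 194.6 and 178.1 CPM in GRflox libraries 1 to 5. These overlapped, with GRMAC 2 highest, and the log2 fold change was 0.17 ± 0.10 (edgeR adjusted p = 0.394; exact permutation p = 0.175).

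Summed by class, which is a description without a test, alpha transferases stood at 991.7 ± 202 CPM in GRMAC and 989.8 ± 93.6 CPM in GRflox (SD, n = 5 each). The 7 mu genes, which form a cluster on chromosome 3, summed to 690.4 ± 79.8 CPM in GRMAC and 719.2 ± 92.6 CPM in GRflox, and the theta genes on chromosome 10 to 297.0 ± 28.9 CPM in GRMAC and 282.7 ± 31.1 CPM in GRflox. Of the 8 tested mu and theta genes other than Gstm1 and Gstt1, fold changes lay between −0.16 (Gstm3) and 0.13 (Gstm2), none with an edgeR adjusted p under 0.429. All 18 Gst genes together had 2181.5 ± 282 CPM in GRMAC and 2261.7 ± 162 CPM in GRflox. One gene made up most of several classes, 94.6% of alpha in GRMAC and 94.1% in GRflox for Gsta3, and 84.1% of mu in GRMAC and 85.0% in GRflox for Gstm1.

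**Figure D3:**
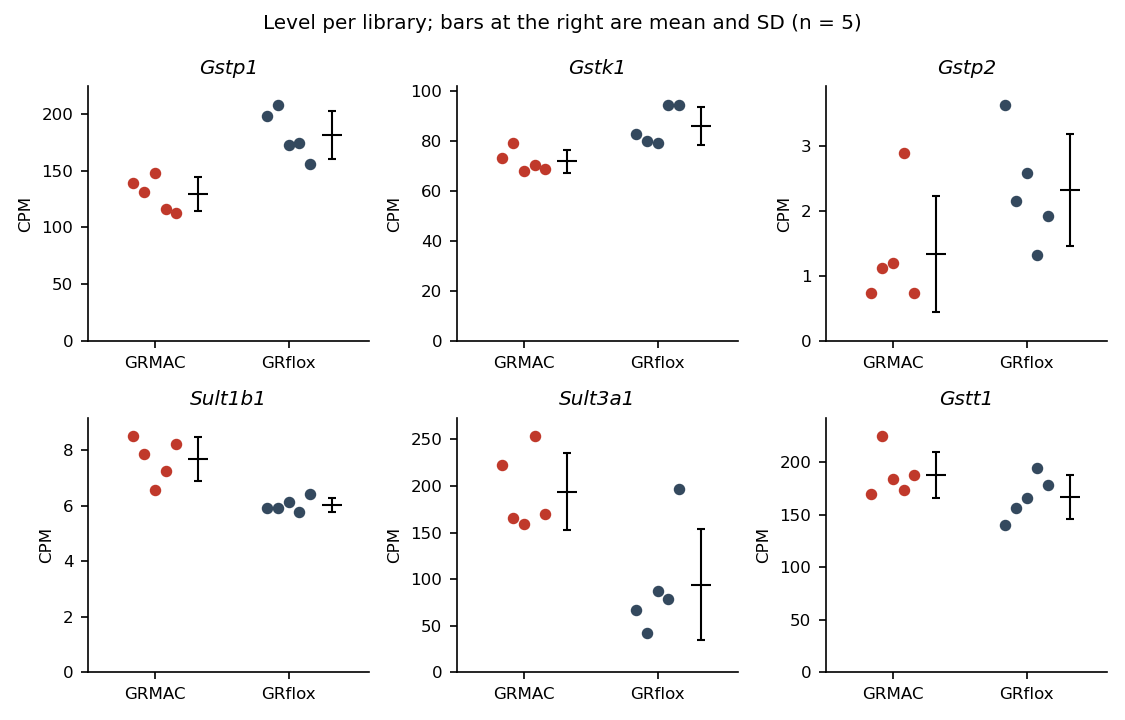
Level in CPM of 6 genes in each of 5 GRMAC (left) and 5 GRflox (right) libraries, each axis starting at 0, with mean and SD beside the points. The genotypes do not overlap for Gstp1, Gstk1 and Sult1b1, while GRflox 5 (196.2 CPM) lies among the GRMAC libraries for Sult3a1 and GRMAC 4 (2.88 CPM) among the GRflox libraries for Gstp2.

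Of the sulfotransferases 11 of 19 were tested, with a median log2 fold change of 0.21 (6 positive and 5 negative). The largest difference was that of Sult3a1, an amine sulfotransferase that is female-biased in mouse liver (NM_020565, chromosome 10, 33857722 to 33879475). It had 222.0, 165.7, 158.7, 253.1 and 170.1 CPM in GRMAC libraries 1 to 5, against 66.6, 42.2, 87.7, 78.7 and 196.2 CPM in GRflox libraries 1 to 5. All GRMAC libraries lay above 4 of the 5 GRflox libraries, and GRflox 5 lay among the GRMAC ones. Means were 193.9 ± 41.5 CPM in GRMAC and 94.3 ± 59.5 CPM in GRflox, a log2 fold change of 1.04 ± 0.39 that did not pass (edgeR adjusted p = 0.232; exact permutation p = 0.0317). It was 1.5 without GRflox 5 (edgeR adjusted p = 0.0962), and the authors' deposited table gave an adjusted p of 0.120.

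Sult1b1, which sulfates phenols and thyroid hormone (NM_019878, chromosome 5, 87513339 to 87538195), was higher in GRMAC at a low level. It had 8.49, 7.85, 6.55, 7.26 and 8.23 CPM in GRMAC libraries 1 to 5, against 5.93, 5.90, 6.12, 5.78 and 6.42 CPM in GRflox libraries 1 to 5, without overlap. The log2 fold change was 0.35 ± 0.09 (edgeR adjusted p = 0.109; exact permutation p = 0.00794), and the authors' deposited table gave an adjusted p of 0.0441. With offsets for GC content and transcript length, a correction added after the data were seen, it was 0.22 (edgeR adjusted p = 0.312). The transcript of Sult1b1 has 36.9% GC, that of Gstp1 55.8%. Sult1d1, a neighbour on chromosome 5 that sulfates catecholamines in mice, had 227, 183, 225, 219 and 154 CPM in GRMAC libraries 1 to 5, against 183, 167, 206, 245 and 226 CPM in GRflox libraries 1 to 5 (−0.03 ± 0.13, edgeR adjusted p = 0.945). Sult1e1, the oestrogen sulfotransferase, stayed at 0 to 17 counts per library.

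Sult1a1 had 402, 347, 404, 357 and 339 CPM in GRMAC libraries 1 to 5, against 317, 307, 444, 391.9 and 449 CPM in GRflox libraries 1 to 5, with the GRMAC values inside the range of GRflox (−0.05 ± 0.11, edgeR adjusted p = 0.873). Sult2a8, a bile acid sulfotransferase of mouse liver, had 300.0, 434.3, 287.5, 239.4 and 374.5 CPM in GRMAC libraries 1 to 5, against 222.6, 303.1, 246.3, 343.6 and 301.0 CPM in GRflox libraries 1 to 5 (0.21 ± 0.17, edgeR adjusted p = 0.576). Its groups overlapped. Sult2a7 was near the floor of the data, with 0.862, 0.924, 0.556, 1.04 and 1.44 CPM in GRMAC libraries 1 to 5, against 0.117, 0.94, 0.418, 0.826 and 1.26 CPM in GRflox libraries 1 to 5 (0.43 ± 0.43, edgeR adjusted p = 0.668).

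The other Sult2a genes, which encode hydroxysteroid sulfotransferases and lie in a cluster on chromosome 7, differed more between libraries of a genotype than between the genotypes. They are described because of this spread, seen after their values were known. Sult2a1 had 7.76, 9.58, 30.0, 22.4 and 32.1 CPM in GRMAC libraries 1 to 5, against 10.3, 5.57, 58.8, 4.02 and 77.5 CPM in GRflox libraries 1 to 5. GRflox 3 and GRflox 5 stood above the other GRflox libraries, and the highest was 19.3 times the lowest. The same pair of libraries was highest in GRflox for Sult2a2 (27.0 and 25.5 CPM, the others at most 8.08 CPM) and for Sult2a5 (5.29 and 4.91 CPM, the others at most 1.39 CPM). Of the windows of Sult2a1, 29.5% occur in Sult2a2, and 62.1% of those of Sult2a2 occur in other genes, so reads may be split between these genes and their high values in the same libraries are not independent. GRflox 5 was also the highest GRflox library for Sult3a1, which shares only 6.2% of its windows with another gene. The coefficient of variation in GRflox was over 50% for 5 of the 38 genes, against a median of 15.4%, and those were Sult2a1, Sult2a2, Sult2a5, Sult2a7 and Sult3a1.

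**Figure D4:**
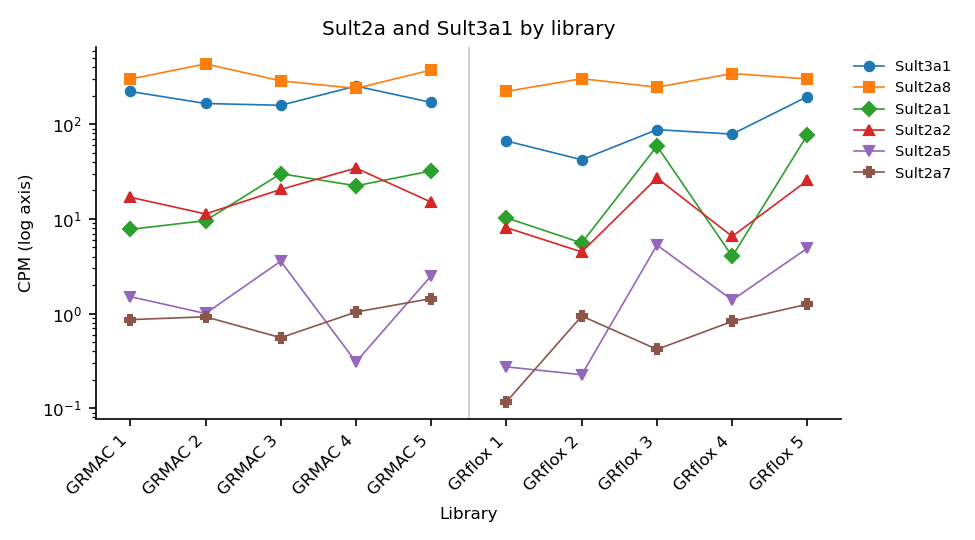
Level in CPM (log axis) of Sult3a1 and 5 Sult2a genes in 5 GRMAC and then 5 GRflox libraries. Among the GRflox libraries Sult2a1, Sult2a2 and Sult2a5 are highest in GRflox 3 and GRflox 5, and Sult3a1 is lower in GRflox 1 to 4 (42.2 to 87.7 CPM) than in every GRMAC library.

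Of the glucuronosyltransferases 11 of 12 were tested, none with an unadjusted p under 0.05, and all fold changes were between −0.10 and 0.24. The Ugt2 genes, most of which lie in a cluster on chromosome 5 and act on steroids, bile acids and drugs, summed to 2191.9 ± 323 CPM in GRMAC and 2115.3 ± 239 CPM in GRflox (SD, n = 5 each). Ugt2b5 had 660, 859, 617, 560 and 653 CPM in GRMAC libraries 1 to 5, against 627, 691, 601, 720 and 548 CPM in GRflox libraries 1 to 5 (0.07 ± 0.11, edgeR adjusted p = 0.790). GRMAC 2 was highest. It was also near the top for Ugt2b36, at 456, 558, 476, 366 and 428 CPM in GRMAC libraries 1 to 5, against 447, 455, 453, 560 and 381 CPM in GRflox libraries 1 to 5 (−0.01 ± 0.11, edgeR adjusted p = 0.982), and highest for Ugt2b34, at 378, 566, 437, 367 and 465 CPM in GRMAC libraries 1 to 5, against 345, 441, 428, 535 and 415 CPM in GRflox libraries 1 to 5 (0.03 ± 0.13, edgeR adjusted p = 0.932).

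Ugt2b35, with the lowest p of these genes, had 99.8, 147.8, 113.7, 125.7 and 108.0 CPM in GRMAC libraries 1 to 5, against 67.3, 99.2, 127.3, 131.2 and 77.9 CPM in GRflox libraries 1 to 5 (0.24 ± 0.19, edgeR adjusted p = 0.577; exact permutation p = 0.246). The groups overlapped. Ugt2a3 had 244, 225, 210, 179 and 234 CPM in GRMAC libraries 1 to 5, against 183, 202, 238, 221 and 194 CPM in GRflox libraries 1 to 5 (0.07 ± 0.09, edgeR adjusted p = 0.737). These overlapped as well. Ugt2b37 had 5.86, 13.8, 7.38, 5.92 and 6.13 CPM in GRMAC libraries 1 to 5, against 7.73, 7.15, 4.75, 4.81 and 9.67 CPM in GRflox libraries 1 to 5, with GRMAC 2 apart from the rest (0.20 ± 0.28, edgeR adjusted p = 0.776). The Ugt3 genes on chromosome 15, whose human counterparts use sugars other than glucuronic acid, summed to 452.4 ± 25.2 CPM in GRMAC and 467.8 ± 47.1 CPM in GRflox. Ugt3a2, the more abundant, had 409, 406, 397, 363 and 379 CPM in GRMAC libraries 1 to 5, against 360, 376, 392.1, 438 and 445 CPM in GRflox libraries 1 to 5 (−0.04 ± 0.07), and the genotypes overlapped. Ugt3a1 had 59.9, 73.0, 60.4, 52.7 and 60.2 CPM in GRMAC libraries 1 to 5, against 58.7, 59.4, 57.2, 78.4 and 74.4 CPM in GRflox libraries 1 to 5 (−0.10 ± 0.11, edgeR adjusted p = 0.687).

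The Ugt1 genes, whose Ugt1a1 product conjugates bilirubin, share their last exons. Of these genes the table holds 1 row, Ugt1a10 (chromosome 1, 88055411 to 88220002), at 1.498 to 2.74 CPM in GRMAC and 1.69 to 2.66 CPM in GRflox. In GENCODE 69.8% of the windows of its transcript occur in other genes, so this row does not give the level of Ugt1 RNA as a whole. The other Ugt1a genes have no row of their own and could not be analysed.

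Single libraries were often at the extreme for several of these genes. GRMAC 2 held the highest of the 10 values for 11 of the 38 genes and the lowest for 0, where it was highest for 14.0% and lowest for 13.7% of all tested genes. GRflox 4 was highest for 8 (8.96% of all tested genes), and GRMAC 4 lowest for 9 (14.3% of all tested genes). In GRMAC 2 the summed sinusoidal endothelial markers were at 261.7 CPM, against 390.8 to 429.5 CPM in the other GRMAC libraries, and stellate cell markers at 333.5 CPM, against 399.8 to 459.5 CPM. Without GRMAC 2 the log2 ratio of the summed Ugt genes was −0.04 in place of 0.03. The part of cell makeup in these values was not tested.

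Genes that supply and serve the same reactions were set beside the transferases. No member of the 13 companion lists passed the edgeR threshold, and their medians of log2 fold changes are given with the number of genes tested, against 0.001 over all genes. Of other glutathione transferases (6 tested, median 0.08) Hpgds, a sigma class enzyme that makes prostaglandin D2, was at 2.37 ± 0.345 CPM in GRMAC and 1.04 ± 0.353 CPM in GRflox without overlap (1.18 ± 0.22, edgeR adjusted p = 0.0543), and Gstcd was at 0.18. Of genes of glutathione supply (13, median 0.01) Chac1, which degrades glutathione, was at 0.90 and Oplah, of the same cycle, at −0.24. PAPS supply genes had a median of 0.08 (8 tested; Slc35b3, a PAPS carrier, 0.26, and Suox −0.17). UDP-glucuronic acid supply genes had a median of 0.00 (7; the carriers Slc35d2 0.28 and Slc35d1 0.16), and genes that remove sulfate or glucuronic acid −0.11 (5; Gusb −0.21 and Arsb −0.11). The list of pumps for conjugates, which also holds Rdx, not itself a pump, had a median of 0.06 (8 tested, Abcc1 0.34 and Abcg2 0.07). In the authors' deposited table Hpgds and Chac1 were higher and Oplah lower at an adjusted p under 0.05, and no PAPS, UDP-glucuronic acid, deconjugation or pump gene passed.

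Of 19 regulators of the 3 families (median −0.07), all transcription factors but Keap1, 8 had an unadjusted edgeR p under 0.05, Keap1 among them. Of all tested genes 16.3% had such a p. Arnt, the partner of the AHR, had 70.1, 78.6, 77.8, 85.7 and 71.8 CPM in GRMAC libraries 1 to 5, against 65.2, 62.1, 57.7, 59.4 and 57.7 CPM in GRflox libraries 1 to 5 (0.35 ± 0.06, edgeR adjusted p = 0.0505). Nfe2l2, which encodes NRF2, had 70.2, 73.4, 60.9, 66.0 and 72.9 CPM in GRMAC libraries 1 to 5, against 78.5, 84.6, 82.1, 87.2 and 87.3 CPM in GRflox libraries 1 to 5 (−0.29 ± 0.06, edgeR adjusted p = 0.0649). Neither overlapped, and both passed in the authors' deposited table. NRF2 targets outside the 3 families had a median of −0.04 (16 tested, 11 negative; Srxn1 −0.45 and Txnrd1 −0.17), and targets of AHR, CAR and PXR −0.05 (12; Cyp2b9 0.48 and Cyp1a1 0.66). Cyp1a1 was at a low level, at 0.462 to 0.823 CPM in GRMAC and 0.258 to 0.647 CPM in GRflox, with overlap (edgeR adjusted p = 0.306). A search of the 250 bases upstream of 42 of the 49 genes (51 start sites) for the core of the antioxidant response element, TGACNNNGC on both strands, found it at Gsta3, Gstm5 and Gstm7, and in 10.2% of all windows. This pattern requires TGAC and passes over forms with TGAG, such as the TGAGTCAGC that both printed windows of Gstp1 and Gstp2 hold. Such forms were not counted, so no match does not mean that no such element is present. The full palindrome of the glucocorticoid response element was found at 0 of the 51 start sites and in 0.39% of all windows.

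Because Sult3a1 is female-biased and Gstp1 male-biased in mouse liver, lists of other such genes were set beside them. The female-biased list had a median of 0.35 (14 tested, 11 positive). Cyp2b9, a cytochrome P450 gene, averaged 846 ± 133 CPM in GRMAC and 605 ± 110 CPM in GRflox (edgeR adjusted p = 0.11). GRflox 5, the highest GRflox library for Sult3a1, was the highest of the GRflox libraries for 6 of the 14 genes of this list, GRflox 4 for 4, GRflox 1 for 3, GRflox 2 for 1 and GRflox 3 for 0. Over all tested genes GRflox 5 was the highest of all 10 libraries for 13.5%, against 6.22% to 8.96% for each other GRflox library. The counts over the list are among GRflox libraries only, so these percentages are on another scale and cannot be compared with them. The share over all tested genes among GRflox libraries only was not computed. Of the 6 genes of the list highest in GRflox 5, Cyp3a44, chosen after its values were seen, was at 247 CPM there. The other GRflox libraries had 41.1 to 87.1 CPM. Cyp3a41a and Cyp3a16, of the same gene family, were also among the 6, and whether these vary independently was not tested. Cyp2b9 passed as higher in the authors' deposited table. The male-biased list had a median of −0.09 (10 tested, 6 negative; Cyp4a12a −1.78 ± 0.81 and Elovl3 −0.42 ± 0.26), and none passed there. Cyp4a12a was near the floor, at 0.0397 to 0.500 CPM in GRMAC and 0.228 to 3.72 CPM in GRflox (edgeR adjusted p = 0.308). Its groups overlapped, and its highest value was that of GRflox 2, with the other GRflox libraries at most at 0.858 CPM. Zonation lists had medians of 0.04 for pericentral genes (18; Aldh3a2 −0.33 and Oat −0.28) and −0.04 for periportal genes (15; Pck1 −0.47 and Sdsl −0.49). Of these only Aldh3a2 passed in the authors' deposited table, as lower.

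Markers of other cell types were measured in the same libraries. Of all these markers Cd163, of the Kupffer cell list, was the one that passed the edgeR test, at 3.07 ± 0.493 CPM in GRMAC and 28.8 ± 7.81 CPM in GRflox. Summed levels were 18.6 to 32.2 CPM in GRMAC and 30.5 to 43.7 CPM in GRflox for monocyte markers (7 genes). Most of this sum was Lyz2, at 21.1 ± 5.21 CPM in GRMAC and 32.3 ± 5.51 CPM in GRflox. Of the other tested monocyte markers, Ccr2 was higher in GRMAC (log2 fold change 0.62) and Itgam lower (−0.52), neither past the edgeR threshold. The sum thus largely follows 1 gene, and the number of monocytes was not tested. Neutrophil markers (7) summed to 3.25 to 6.03 CPM in GRMAC and 2.60 to 4.88 CPM in GRflox. Lymphocyte markers (9) summed to 4.54 to 5.86 CPM in GRMAC and 3.005 to 5.59 CPM in GRflox. Endothelial markers of GRflox libraries lay at 337.6 to 380.9 CPM and stellate cell markers at 341.1 to 418.1 CPM. Genes of gut, kidney, pancreas and fat reached at most 13 counts in a library, and Slc12a1, Prss2 and Cpb1 were at 0 in all.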

How the data were processed

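Polyadenylated RNA of whole liver was sequenced in 10 libraries. Per the submitters' processing notes reads were aligned with HISAT2 2.1.0 to mm10 and compared with DESeq2 1.24.0; the counting program, strand setting and annotation are not given in the sources used here. The authors deposited raw read counts for 19764 genes, matched to samples by genotype and number. Their second deposited table holds log2 fold changes and adjusted p-values, per the file headers; its 10 columns of values per library were not used. Gene length in the count table, per the file headers, spans introns, a value of another kind that was not used; lengths came from GENCODE M21 transcripts matched by RefSeq accession (49 of 49 members).

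Genes with low counts were removed with filterByExpr, which left 12558 genes and took 0.0348% of counts. Libraries were scaled by TMM, and GRMAC was compared with GRflox by the robust quasi-likelihood test of edgeR 4.0.16 (R 4.3.3), with Benjamini-Hochberg adjustment over all genes and a threshold of 0.05. Standard errors come from the fold change and F. Scripts were tested on simulated data. Alternatives were DESeq2 1.42.0, limma-voom (limma 3.58.1), other scalings, no filter, no robust estimation, the replicate number as a block, each library left out, and offsets from splines (5 degrees of freedom) on GC content and length. Values in every library are given in each superfamily for the 4 genes with the lowest p and the 3 with the highest CPM; from each companion list the 2 genes with the lowest p are named, except some that are not reported here, and other genes were chosen after their values were seen. Members and lists were chosen with earlier results of these data known. Library totals limit precision to counting error only.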

Additional observations from a re-analysis of the deposited data

Results flagged for a closer look

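The genes and family sums made 106 groups of 5 libraries, and in 6 of them 1 library stood far outside the range of the rest; about 5 such groups (1 in 20) would come up by chance. Gsta4 was at 62.8 CPM in GRflox 4, against 32.8 to 41.1 CPM in the other GRflox libraries. In GRflox 5 Gstm4 was at 10.4 CPM, below 11.9 to 12.5 CPM in the others, and Gstm6 at 25.3 CPM, below 34.5 to 36.4 CPM. Gstp2 was at 2.88 CPM in GRMAC 4, against 0.733 to 1.19 CPM in the other GRMAC libraries. In GRMAC 2 Ugt2b37 was at 13.8 CPM, against 5.86 to 7.38 CPM in the others, and the summed theta class (Gstt) at 348 CPM, against 279 to 288 CPM.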

How the results depend on the processing

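Only the spline offsets for GC content and length were added later, with the data in view. The 22 genes past the threshold became 425 with DESeq2, 8 with limma-voom, 8 without robust estimation, 34 without a filter, 81 with the replicate block, 9 with the GC and length offsets and between 5 (without GRflox 3 or GRflox 5) and 47 (without GRMAC 5) when 1 library was dropped. The 0 genes of the 3 families became 3 with DESeq2 (Gstp1, Gstk1 and Sult1b1), 1 without a filter and 1 with the replicate block (Gstp1 in both), and stayed at 0 when any library was left out; the cause was not tested. Same-numbered libraries correlated over 0.1 for 2 of 5 numbers (0.173 and 0.148) and at −0.108 for number 4, and 2 libraries of each genotype correlated best with their own number, so the numbers were not taken as pairs.

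Of 684 single-gene values under alternatives, 628 kept direction and side of the threshold and 51 changed sign, in 18 genes. Left-out libraries gave log2 fold changes from −0.331 to 0.0731 for Gsta2, −0.0764 to 0.0876 for Gsta3, −0.216 to 0.0951 for Gsta4, −0.327 to 0.00279 for Gstm3, −0.097 to 0.165 for Gstt3, −0.111 to 0.0189 for Sult1a1, −0.0897 to 0.0565 for Sult1d1, −0.9 to 0.0527 for Sult2a1, −0.868 to 0.0557 for Sult2a5, −0.141 to 0.0844 for Sult5a1, −0.12 to 0.0857 for Ugt1a10, −0.0657 to 0.0832 for Ugt2b1, −0.0677 to 0.121 for Ugt2b34, −0.0862 to 0.0735 for Ugt2b36, −0.106 to 0.358 for Ugt2b37, −0.138 to 0.263 for Ugt2b38 and −0.0307 to 0.129 for Ugt2b5. With limma-voom Gsta3 was at −0.0113, Gstt3 at 0.0407, Sult2a1 at 0.124 and Sult2a5 at 0.131; with the replicate block Gsta3 was at −0.0107 and Gstt3 at 0.0367; with upper-quartile scaling Gstt3 was at 0.0104 and Ugt2b36 at 0.000894. With the GC and length offsets Gsta3 was at −0.0455, Gstt3 at 0.0105, Ugt2a3 at −0.000284, Ugt2b1 at −0.0658, Ugt2b34 at −0.0523 and Ugt2b5 at −0.0178. None of the 180 summed family ratios under alternatives moved by more than the spread between libraries. For the settings with a library left out this comparison was weak. Leaving out a single library usually shifts the mean of its group by less than that spread, unless it lies very far from the rest. For those settings the comparison therefore says little on whether the sums depend on single libraries, and no conclusion is drawn from it. Genes under about 1 CPM, such as Sult2a7, are limited by depth.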
